A study of Mus musculus with 8 samples.

Results

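Lhx2 was deleted from the developing mouse cortex in 2 lines that differ in when recombination starts, and the quantity described here is the difference between the 2 resulting expression changes: the mutant against control change in the Emx1Cre line minus the mutant against control change in the NexCre line. The contrast used 8 of the 8 libraries of the series, in 4 groups of 2: Emx1Cre11.5;Lhx2lox/lox mutants and Emx1Cre controls, and NexCre;Lhx2lox/lox mutants and NexCre controls. Each library was RNA from subplate microdissected at postnatal day 0 and pooled from 2 brains of mixed strain background, so n = 2 pools in every group, and p-values measure the spread between pools. Controls are labelled wild type, and whether they carried a Cre allele is not given, so an effect of Cre cannot be told apart from that of the deletion. A positive difference means that the mutants of the Emx1Cre line stood higher, relative to their own controls, than the mutants of the NexCre line did relative to theirs.

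Lhx2 encodes a LIM-homeodomain transcription factor that acts in cortical progenitors, where it takes part in the choice of cortical fate and in the timing of neurogenesis and gliogenesis, and again in neurons that have left the cell cycle. Emx1Cre recombines in dorsal telencephalic progenitors, and so in both the excitatory neurons and the glia that they produce. NexCre is driven from the Neurod6 locus and recombines in excitatory neurons after their last division, sparing progenitors and glia. The subplate is an early born neuron layer below the cortical plate that guides and receives the first thalamic axons.

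The library sets of the lines differed in composition: the lines lay apart on principal component 1, which carried 79.2% of the variance, and histone genes took 0.00861% to 0.00914% of the reads in Emx1Cre libraries and 0.726% to 0.885% in NexCre libraries. Levels are therefore compared only within a line. The libraries held 31.2 to 64.4 M reads. Expression per library is given as scaled CPM, read counts relative to the library's size after TMM scaling. Effects and differences are log2 values ± the standard error of the edgeR fit. In tissue of this kind, fewer cells of a type and less RNA per cell cannot be told apart. Some pools carried more RNA of neighbouring tissue than their partner. Mutant pool 2 of the Emx1Cre line had Penk, a striatal neuropeptide gene, at 55.1 CPM against 10.9 CPM in mutant pool 1. Control pool 1 of the NexCre line had the thalamic gene Lhx9 at 59.9 CPM against 1.85 CPM in control pool 2. Labelled mutant pool 1 of the NexCre line had the choroid plexus gene Ttr at 1966 CPM against 20.2 CPM in mutant pool 2.

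The targeted gene was below its controls in both Emx1Cre mutant pools and overlapped them in the NexCre line. Lhx2 (chromosome 2, 38339281 to 38369733, mm10) had 63.97 and 42.7 CPM in Emx1Cre mutants, against 90.4 and 91.5 CPM in Emx1Cre controls. In the libraries labelled NexCre mutants it had 227 and 245 CPM, against 182 and 236 CPM in NexCre controls. The effects were -0.77 ± 0.20 in the Emx1Cre line (edgeR adjusted p = 0.273) and 0.18 ± 0.20 in the NexCre line. The difference of effects was -0.95 ± 0.28 (95% interval -1.57 to -0.32, adjusted p = 0.648 by the quasi-likelihood test of edgeR, Benjamini-Hochberg method). With single libraries left out it ran from -1.27 (without Emx1Cre mutant pool 1) to -0.68 (without Emx1Cre mutant pool 2). With Emx1Cre mutant pool 2 and NexCre control pool 1 both left out it was -0.50. The counts cover the whole gene, and reads outside a deleted stretch, or from cells that did not recombine, would still be counted. The NexCre mutant libraries are called labelled mutants below, because this gene did not separate them from their controls. Emx1, a homeobox gene of the dorsal telencephalon, had 24.6 and 20.99 CPM in Emx1Cre mutants and 66.4 and 78.4 CPM in Emx1Cre controls. It had 27.8 and 26.3 CPM in labelled NexCre mutants and 32.1 and 50.3 CPM in NexCre controls, a difference of -1.06 ± 0.30. Its Emx1Cre effect of -1.66 ± 0.22 was called by edgeR (adjusted p = 0.0334). The Emx1Cre driver is named after Emx1, and the part of the driver allele in these values was not tested. Neurod6, whose locus carries NexCre, had 323 and 209 CPM in Emx1Cre mutants and 336 and 309 CPM in Emx1Cre controls. In the NexCre line it had 308 and 228 CPM in labelled mutants and 395 and 507 CPM in controls, so both labelled mutants were below both controls. Its difference of 0.47 ± 0.32 had an interval that holds 0. The part of the NexCre allele in these values was not tested.

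Across the genome few genes were called as having effects that differed between the lines beyond the spread of the pools. Of 22820 genes tested, edgeR called 1 at an adjusted p of 0.05 (0.00438%), the histone pseudogene Hist1h2al, and the next lowest adjusted p was 0.109. Without NexCre control pool 2 the count was 31, of which 28 were higher, and without any other single library it was 1 to 8. Among genes described below, edgeR then called Pou3f1 without Emx1Cre control pool 1, Igfbpl1, Hgf, Neurod1 and Eomes without Emx1Cre control pool 2, Lmo3, Ptgds, Dcn and Aldh1a2 without Emx1Cre mutant pool 1, and Insm1 without Emx1Cre mutant pool 2. Without NexCre control pool 2 it called Snhg11, Selenop, Gja1, Aqp4, Slc4a4, Fzd10 and Tcf7l2. Without adjustment, 1242 genes had an edgeR p under 0.05 (5.44%), 772 with a higher difference (3.38%) and 470 with a lower one (2.06%), where 1141 are expected by chance. DESeq2, a second count test, called 96 of the 19723 genes to which it gave an adjusted p (0.487%), 56 higher (0.284%) and 40 lower (0.203%). The median difference over all tested genes was -0.01, with quartiles of -0.30 and 0.33. For the 12371 protein-coding genes with a mean of at least 1 CPM in each line, the median half-width of the 95% interval was 0.65, against a median absolute difference of 0.19. For a typical gene, then, a difference in log2 effect smaller than about that half-width had an interval that holds 0. Calls were adjusted over all genes and asked for more: Pou3f2, at -1.59 ± 0.24 (edgeR adjusted p = 0.384), was not called. Few calls therefore do not show that few effects differed. Across genes the 2 effects had a Pearson r of 0.0158 and a Spearman rho of 0.0556 over 22820 genes. Over the 14357 genes with a mean of at least 1 CPM in each line, these were 0.0626 and 0.0869. The spread between 2 pools a group lowers such values, so they do not show that the effects are unrelated. Genes are not independent replicates, and these values have no p.

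**Figure D1:**
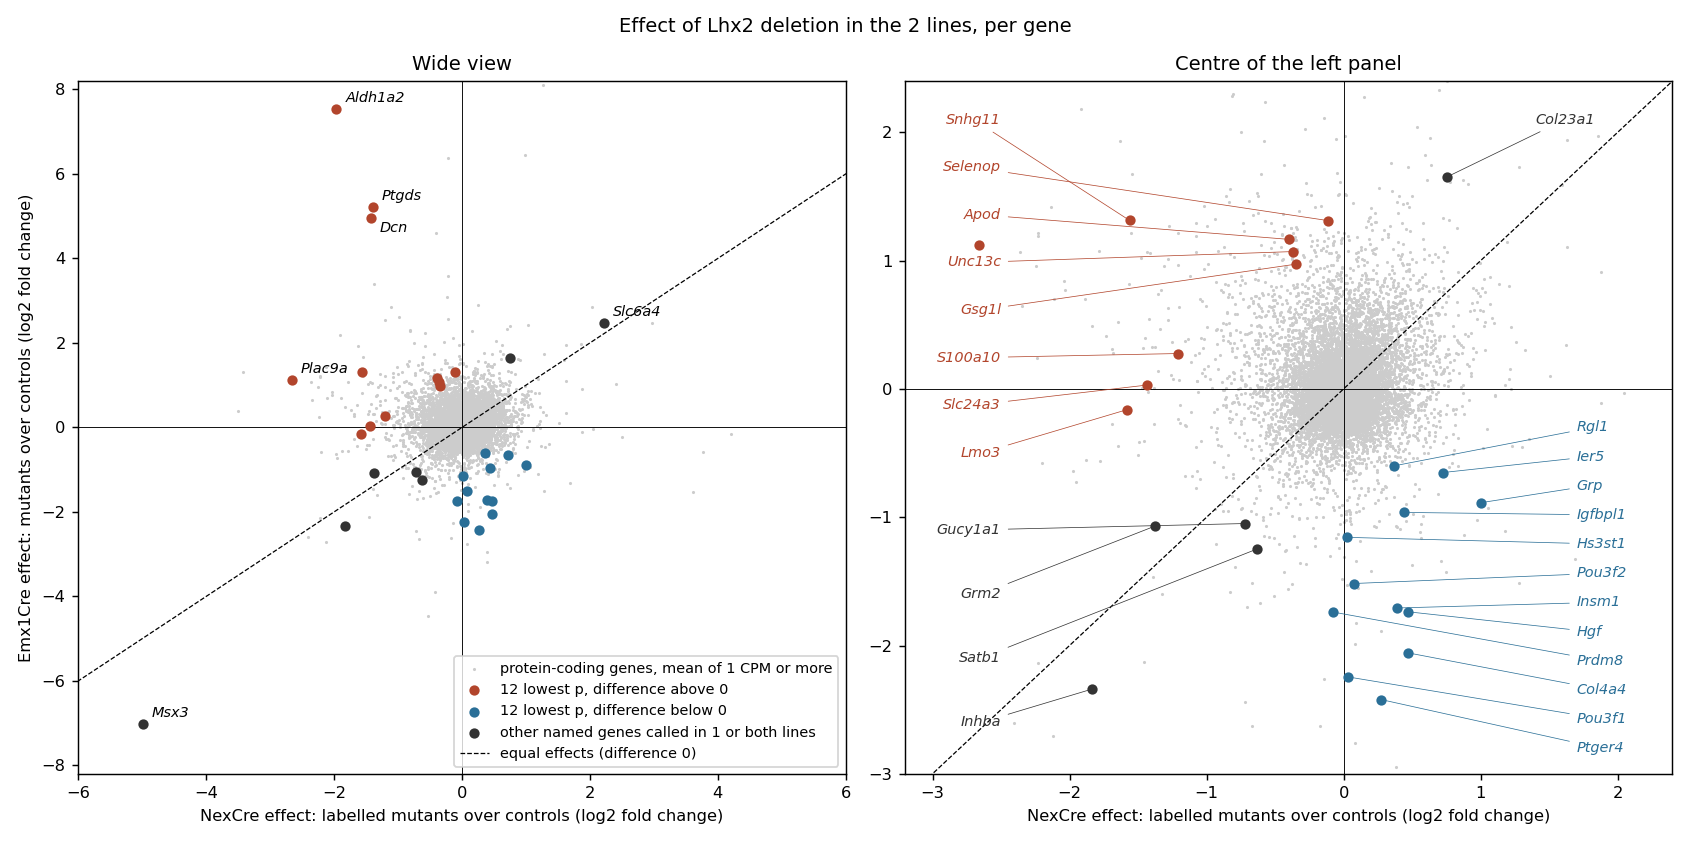
Log2 effect in the Emx1Cre line (vertical axis) against the log2 effect in the NexCre line (horizontal axis), each mutants over their own controls, in a wide view and an enlarged centre. Grey points are protein-coding genes with a mean of at least 1 CPM in each line, and coloured points are named genes. Pou3f1 lies at -2.24 in the Emx1Cre line and 0.03 in the NexCre line, below the diagonal of equal effects.

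The single gene called was a histone sequence that was high in labelled NexCre mutants. Hist1h2al (chromosome 13, 51202727 to 51203065, mm10) is annotated in GENCODE M21 as a processed pseudogene of the histone H2A family. It had 1.401 and 1.31 CPM in Emx1Cre mutants and 1.13 and 2.03 CPM in Emx1Cre controls, which overlapped. It had 38.7 and 66.4 CPM in labelled NexCre mutants, from 1471 and 2740 reads, and 0.5602 and 0.275 CPM in NexCre controls, from 18 and 11 reads. The difference was -7.19 ± 0.59 (95% interval -8.51 to -5.87, edgeR adjusted p = 0.00618), and it stayed between -7.75 and -6.74 when each library was left out in turn. Histone genes are near-identical copies of each other, so how reads were split among them is uncertain. The share of reads on all histone genes was 0.885% and 0.803% in labelled NexCre mutants and 0.761% and 0.726% in NexCre controls. It was thus higher in the labelled mutants, by far less than Hist1h2al was. In Emx1Cre libraries all histone genes took only 0.00861% to 0.00914% of the reads. A rise of Hist1h2al there could be too low to see, so the overlap of the Emx1Cre groups does not show a lack of effect. Labelled NexCre mutant pool 1 had the higher share and the lower level of Hist1h2al. The part of the histone share in the result was not tested.

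Below this call, the genes with the lowest p for a lower difference included several transcription regulators of cortical projection neurons. These were low in both Emx1Cre mutant pools and level in the NexCre line. None of the 12 genes named in this direction was called by edgeR, and all 12 were called by DESeq2, against 0.203% of all genes. They were chosen by their p, so these counts describe them and are no test. In all 12 both Emx1Cre mutant pools were below both controls. Over all tested genes the Emx1Cre groups were apart for 30.2% and the NexCre groups for 35.8%, in either direction. In the NexCre line both labelled mutants were above both controls for 6 of the 12, and the groups overlapped for the other 6.

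Pou3f2 and Pou3f1 encode POU-domain transcription factors of upper-layer cortical neurons. Pou3f2 (chromosome 4, 22482780 to 22488366) had 15.6 and 12.7 CPM in Emx1Cre mutants, against 36.5 and 44.7 CPM in Emx1Cre controls. It had 188 and 234 CPM in labelled NexCre mutants, against 206 and 196 CPM in NexCre controls. The Emx1Cre groups were far apart and the NexCre groups overlapped. The effects were -1.52 ± 0.18 in the Emx1Cre line and 0.07 ± 0.17 in the NexCre line, a difference of -1.59 ± 0.24 (95% interval -2.13 to -1.05, edgeR adjusted p = 0.384). Pou3f1 (chromosome 4, 124656807 to 124660655) showed the same order, with 17.9 and 14.8 CPM in Emx1Cre mutants and 54.2 and 101 CPM in Emx1Cre controls. It had 137 and 129 CPM in labelled NexCre mutants and 110.4 and 150.2 CPM in NexCre controls, and its difference was -2.28 ± 0.38 (95% interval -3.12 to -1.43). Prdm8 (chromosome 5, 98167198 to 98188991) encodes a repressor that works with Bhlhe22 in axon targeting. It had 6.47 and 6.68 CPM in Emx1Cre mutants and 20.9 and 23.02 CPM in Emx1Cre controls, and 20.5 and 20.8 CPM in labelled NexCre mutants and 17.5 and 26.1 CPM in NexCre controls. Its difference was -1.66 ± 0.31 (95% interval -2.35 to -0.97). All 3 genes fell in the Emx1Cre line by its own edgeR test, in which 18 genes were called (0.0789%), 5 higher (0.0219%) and 13 lower (0.057%). That count was 0 to 28 when single libraries were left out.

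**Figure D2:**
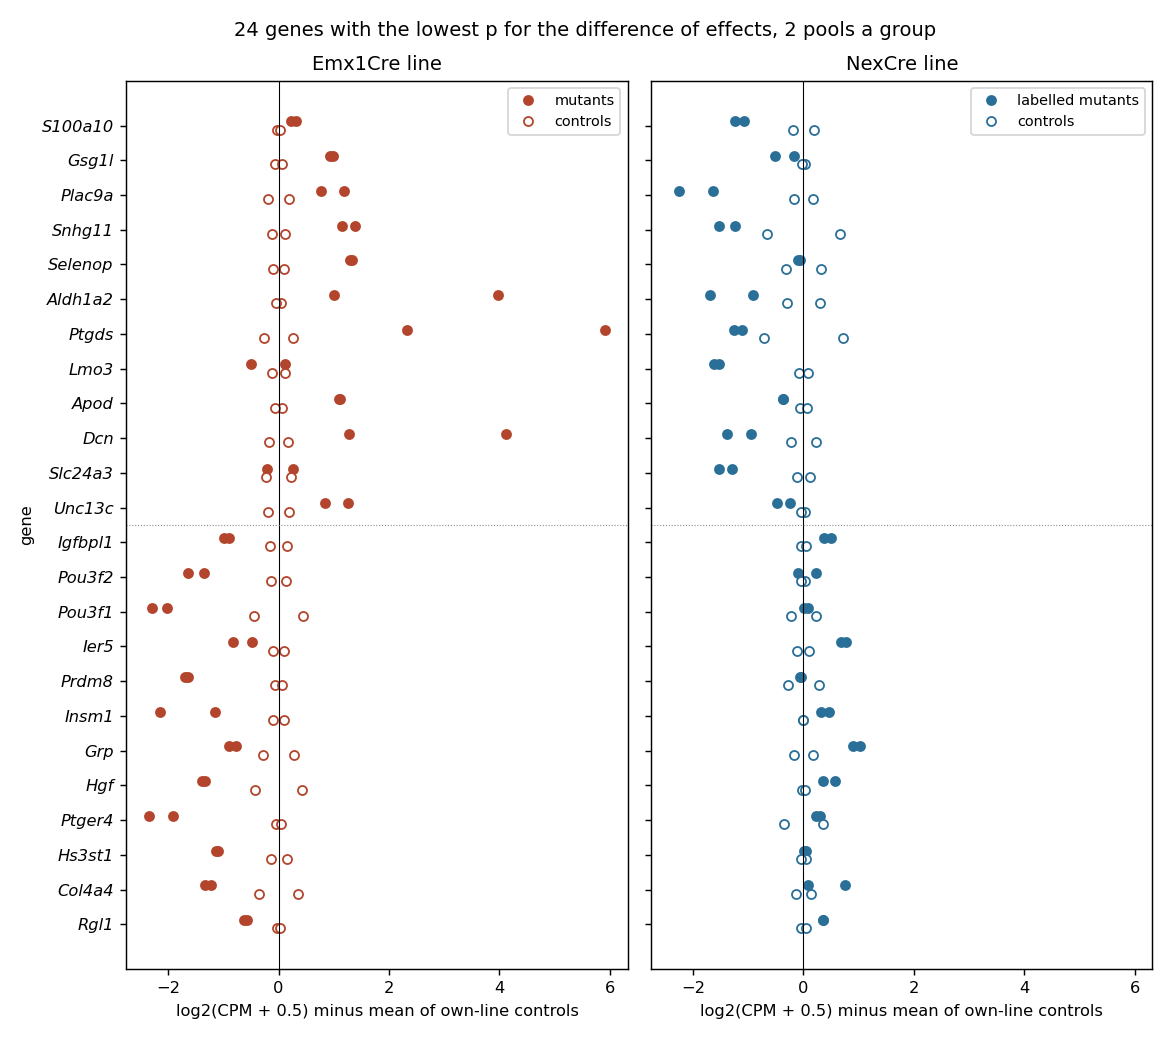
The 24 genes with the lowest p for the difference, 12 above and 12 below the dotted line for a higher and a lower difference, in each pool as log2(CPM + 0.5) minus the mean of the controls of its own line (horizontal axis). Filled points are mutants, open points controls, 1 point a pool. Pou3f2, at 15.6 and 12.7 CPM in Emx1Cre mutants against 36.5 and 44.7 CPM in Emx1Cre controls, stands left of its controls in the Emx1Cre panel and among them in the NexCre panel.

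For other genes of this direction the mutants of the lines lay on opposite sides of their controls. Igfbpl1, which encodes a protein related to the insulin-like growth factor binding proteins, had 70.5 and 75.1 CPM in Emx1Cre mutants and 158 and 126 CPM in Emx1Cre controls. In labelled NexCre mutants it had 488 and 451 CPM, against 335 and 358 CPM in NexCre controls, and its difference was -1.40 ± 0.21 (95% interval -1.87 to -0.93). Both pairs of groups were apart, in opposite directions, a pattern that 4.06% of all tested genes showed. Ier5, an immediate early response gene, had 21.3 and 27.3 CPM in Emx1Cre mutants and 35.6 and 40.7 CPM in Emx1Cre controls. It had 109.7 and 103 CPM in labelled NexCre mutants and 59.4 and 69.2 CPM in NexCre controls, a difference of -1.38 ± 0.24. Insm1, a zinc-finger factor of newly generated neurons and their precursors, had 2.39 and 5.297 CPM in Emx1Cre mutants and 13.3 and 11.5 CPM in Emx1Cre controls. It had 138 and 151 CPM in labelled NexCre mutants and 110.5 and 110.4 CPM in NexCre controls. Its difference was -2.10 ± 0.39. Hgf encodes the ligand of the receptor Met and Grp encodes gastrin-releasing peptide. Hgf had 1.31 and 1.24 CPM in Emx1Cre mutants and 5.57 and 2.89 CPM in Emx1Cre controls. It had 26.3 and 22.4 CPM in labelled NexCre mutants and 17.2 and 17.8 CPM in NexCre controls, a difference of -2.21 ± 0.42. Grp had 9.68 and 8.89 CPM in Emx1Cre mutants and 13.8 and 20.6 CPM in Emx1Cre controls. It had 12.3 and 13.5 CPM in labelled NexCre mutants and 5.63 and 7.22 CPM in NexCre controls, and a difference of -1.89 ± 0.36. The remaining 4 of the 12 were the prostaglandin receptor gene Ptger4 (-2.69 ± 0.55), the heparan sulphate sulphotransferase gene Hs3st1 (-1.18 ± 0.24), the collagen gene Col4a4 (-2.53 ± 0.54), and Rgl1 (-0.97 ± 0.21). The NexCre groups overlapped for Ptger4, Hs3st1 and Col4a4 and were apart for Rgl1. Rgl1 was the last gene named in this direction, with an unadjusted edgeR p of 0.000864, and Cntn2 the first not named, with 0.000884.

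Of the 12 genes named for a higher difference, 7 had the larger effect in the Emx1Cre line and 5 in the NexCre line. None of the 12 named was called by edgeR, and all 12 were called by DESeq2, against 0.284% of all genes. Both Emx1Cre mutants were above both controls for 10 of the 12, and both labelled NexCre mutants were below both controls for 11 of the 12. Over all tested genes the groups were apart for 30.2% and 35.8%, in either direction. These 12 were also chosen by their p, so the counts describe them and are no test.

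The 5 genes with the larger effect in the NexCre line were low in labelled NexCre mutants. Lmo3, a LIM-only transcriptional cofactor, had 102 and 157 CPM in Emx1Cre mutants and 133 and 156 CPM in Emx1Cre controls, which overlapped. It had 68.8 and 64.6 CPM in labelled NexCre mutants, against 212 and 188 CPM in NexCre controls, and was 1 of the 7 genes called in that line (0.0307%), 4 higher (0.0175%) and 3 lower (0.0131%), a count that was 1 to 43 when single libraries were left out. Its difference was 1.42 ± 0.28 (95% interval 0.80 to 2.04, edgeR adjusted p = 0.433). Slc24a3, a potassium-dependent sodium-calcium exchanger, had 68.97 and 95.998 CPM in Emx1Cre mutants and 68.6 and 92.98 CPM in Emx1Cre controls. In labelled NexCre mutants it had 17.7 and 20.8 CPM, against 56.3 and 47.6 CPM in NexCre controls, and its difference was 1.46 ± 0.30. S100a10, which encodes the annexin A2 partner p11, had 62.8 and 58.7 CPM in Emx1Cre mutants and 48.97 and 51.3 CPM in Emx1Cre controls. It had 8.18 and 9.21 CPM in labelled NexCre mutants and 17.5 and 22.7 CPM in NexCre controls, a difference of 1.48 ± 0.25 (95% interval 0.93 to 2.03). Snhg11, a small nucleolar RNA host gene, had 23.5 and 19.95 CPM in Emx1Cre mutants and 7.96 and 9.57 CPM in Emx1Cre controls. In the NexCre line it had 11.8 and 14.6 CPM in labelled mutants and 55.99 and 22.02 CPM in controls. The difference was 2.87 ± 0.51, or 2.05 without NexCre control pool 1, so the size of its NexCre effect depends on that pool. Plac9a had a difference of 3.78 ± 0.64, which is uncertain because its near-identical neighbour Plac9b could share its reads. For all 5 genes the NexCre groups were apart.

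Among the 7 genes with the larger effect in the Emx1Cre line, 4 had mutant pools closer to each other than to either control pool. Gsg1l, an auxiliary subunit of AMPA-type glutamate receptors, had 109 and 113 CPM in Emx1Cre mutants, against 54.05 and 58.8 CPM in Emx1Cre controls. It had 21.1 and 26.8 CPM in labelled NexCre mutants and 31.1 and 29.8 CPM in NexCre controls, and its difference was 1.32 ± 0.22 (95% interval 0.83 to 1.81). Unc13c, a synaptic vesicle priming protein gene, had 60.99 and 45.3 CPM in Emx1Cre mutants and 21.8 and 28.9 CPM in Emx1Cre controls. In the NexCre line it had 16.5 and 19.6 CPM in labelled mutants and 23.9 and 22.7 CPM in controls, and the difference was 1.44 ± 0.30. Selenop encodes a secreted selenium carrier and Apod encodes apolipoprotein D, both made by glia among other cells. Selenop had 171 and 167 CPM in Emx1Cre mutants and 72.6 and 63.4 CPM in Emx1Cre controls. In the NexCre line it had 35.9 and 35.01 CPM in labelled mutants and 46.6 and 30.2 CPM in controls. The difference was 1.43 ± 0.27, or 1.08 without NexCre control pool 1. Apod had 13.8 and 13.7 CPM in Emx1Cre mutants and 6.42 and 5.84 CPM in Emx1Cre controls. In the NexCre line it had 7.44 and 7.396 CPM in labelled mutants and 9.34 and 10.2 CPM in controls, and the difference was 1.56 ± 0.31.

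The other 3 were above their controls in both Emx1Cre mutant pools and far higher in pool 2 than in pool 1. Aldh1a2, Ptgds and Dcn mark the meninges and their fibroblasts: a retinoic acid synthesis enzyme, prostaglandin D2 synthase and the matrix proteoglycan decorin. Ptgds had 14.999 and 186 CPM in Emx1Cre mutants and 3.23 and 2.08 CPM in Emx1Cre controls. It had 11.02 and 9.92 CPM in labelled NexCre mutants and 40.2 and 14.8 CPM in NexCre controls. Its difference of 6.61 ± 1.30 was 3.88 without pool 2. Dcn had 1.15 and 11.3 CPM in Emx1Cre mutants and 0.264 and 0.108 CPM in Emx1Cre controls. It had 1.05 and 1.6004 CPM in labelled NexCre mutants and 4.202 and 2.97 CPM in NexCre controls, and its difference of 6.39 ± 1.28 was 3.98 without it. Aldh1a2 had 30 and 309 reads in Emx1Cre mutants and 2 and 0 reads in Emx1Cre controls, too few in the controls for a fold to be given, and again both mutant pools were above both controls. The summed level of the 13 meningeal markers ran from 119 to 264 unscaled CPM in Emx1Cre mutants and from 63.6 to 74.7 in Emx1Cre controls. It ran from 102 to 132 in labelled NexCre mutants and from 113 to 121 in NexCre controls, and its part in these 3 genes was not tested.

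Some genes called within a line had effects of the same sign in both, with intervals of the difference that hold 0. Both pairs of groups were apart in the same direction for 6.56% of all tested genes. Of the 18 genes called in the Emx1Cre line, 16 had an effect of the same sign in the NexCre line. None of the 18 was called for the difference by edgeR, although 13 had an unadjusted p under 0.05, against 5.44% of all tested genes. The difference contains the Emx1Cre effect by which these genes were chosen, so these counts describe them and are no test. Both Msx3 and Grm2 were called in each line. Msx3, a homeobox gene of the dorsal neural tube, had 4 and 0 reads in Emx1Cre mutants and 248 and 275 reads in Emx1Cre controls. It had 8 and 15 reads in labelled NexCre mutants and 315 and 349 reads in NexCre controls, so it was nearly absent from the mutants of both lines. Its difference was -2.03 ± 0.96 (95% interval -4.18 to 0.11), a wide range, with few reads in the mutants, and it was -5.89 without Emx1Cre mutant pool 1 and -1.25 without pool 2. Grm2, a metabotropic glutamate receptor gene, had 25.5 and 24.9 CPM in Emx1Cre mutants and 50.8 and 54.9 CPM in Emx1Cre controls. It had 24.3 and 25.99 CPM in labelled NexCre mutants and 63.8 and 66.9 CPM in NexCre controls. Its effects of -1.07 ± 0.14 and -1.38 ± 0.15 differed by 0.31 ± 0.20 (95% interval -0.14 to 0.76), so a gap between the effects of more than 0.76 lies outside that interval.

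Inhba, Slc6a4 and Gucy1a1 were called in the Emx1Cre line and had NexCre effects of the same sign that did not pass, with edgeR adjusted p of 0.07802, 0.101 and 0.236. Inhba encodes an activin subunit, and it had 3.81 and 2.15 CPM in Emx1Cre mutants and 13.7 and 16.8 CPM in Emx1Cre controls. It had 16.5 and 17.8 CPM in labelled NexCre mutants and 55.5 and 67.04 CPM in NexCre controls, a difference of -0.51 ± 0.36 (95% interval -1.30 to 0.29) that was -0.99 without Emx1Cre mutant pool 1 and -0.15 without pool 2. Slc6a4, the serotonin transporter gene, had 19.2 and 15.9 CPM in Emx1Cre mutants and 2.95 and 3.38 CPM in Emx1Cre controls, and 4.79 and 3.104 CPM in labelled NexCre mutants and 0.685 and 0.999 CPM in NexCre controls. Its difference was 0.26 ± 0.46 (95% interval -0.76 to 1.28). Gucy1a1, a subunit of the nitric oxide receptor, had a difference of -0.33 ± 0.19 (95% interval -0.76 to 0.09). For other genes called in the Emx1Cre line alone the interval did not hold 0, although edgeR called none of these differences. They were chosen by the Emx1Cre effect, which is part of the difference. The effect was more negative in the Emx1Cre line for Sema7a (-0.84 ± 0.23), a semaphorin, Satb1 (-0.62 ± 0.23, or -0.41 without Emx1Cre mutant pool 2), a chromatin organiser, Tbc1d5 (-1.11 ± 0.27), Plcxd2 (-0.56 ± 0.21) and Cldn3 (-1.96 ± 0.48), a claudin. It was more positive there for Col23a1 (0.90 ± 0.26), a transmembrane collagen, Sdk2 (0.74 ± 0.23), a sidekick adhesion molecule, Etl4 (1.01 ± 0.28) and Sparcl1 (0.94 ± 0.23), a matricellular protein of astrocytes.

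**Figure D3:**
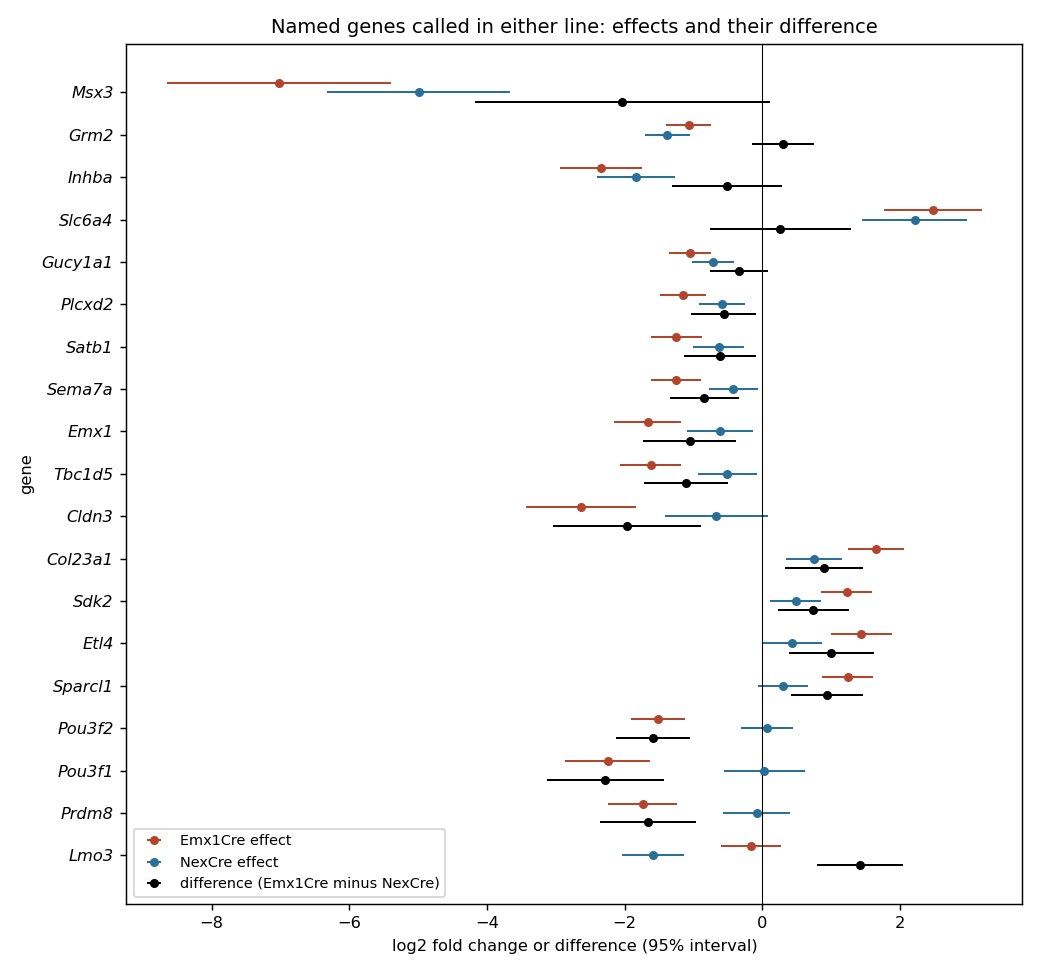
Log2 effects of named genes called in either line, with 95% intervals, in the Emx1Cre line (red) and in the NexCre line (blue), and the difference between them (black). Grm2 lies at -1.07 in the Emx1Cre line and -1.38 in the NexCre line, and the interval of its difference holds 0, while that of Pou3f2 does not.

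Gene lists were described by the number of members at an unadjusted edgeR p under 0.05 and by their median difference, beside 3.38% higher, 2.06% lower and a median of -0.01 over all genes. No member of the 34 lists was called by edgeR after adjustment over all genes in the fit of all libraries with group as its only term. Among regulators of neuron identity the differences leaned low. Of 20 projection-neuron transcription regulators, 9 had a lower difference at that p and 0 a higher one, with a median of -0.66. Of 16 markers of upper-layer and layer 4 neurons, 6 were lower and 1 higher, with a median of -0.64. Leaving out each library in turn kept the first median between -0.81 and -0.48 and the second between -0.83 and -0.37. Neurod1, a proneural factor of differentiating neurons, had a difference of -1.99 ± 0.52 that was -1.07 without Emx1Cre control pool 1. Deep-layer markers had 3 of 16 lower, among them Ldb2 (-0.88 ± 0.24) and Etv1 (-0.82 ± 0.25), a LIM cofactor and an ETS factor. Markers of intermediate progenitors had 4 of 11 lower and a median of -0.37, or -0.58 without Emx1Cre mutant pool 2. Eomes, their defining T-box factor, had a difference of -3.79 ± 1.16 that was -0.71 without Emx1Cre control pool 1 and -6.37 without Emx1Cre mutant pool 1.

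Subplate markers were split in direction. Of 18, 4 were lower and 1 higher. The median was 0.10 with all libraries, and it ran from -0.25 to 0.05 when single libraries were left out. Ccn2, a secreted matricellular factor and a defining subplate gene, had 41.9 and 40.7 CPM in Emx1Cre mutants and 66.9 and 53.5 CPM in Emx1Cre controls. It had 11.9 and 11.3 CPM in labelled NexCre mutants and 8.84 and 8.11 CPM in NexCre controls, and a difference of -0.99 ± 0.24. Kcnab1, a potassium channel beta subunit, had a difference of -0.86 ± 0.25. No subplate marker was at 0 in any group, and their summed level ran from 918 to 1098 unscaled CPM in Emx1Cre mutants and from 1074 to 1107 in Emx1Cre controls.

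**Figure D4:**
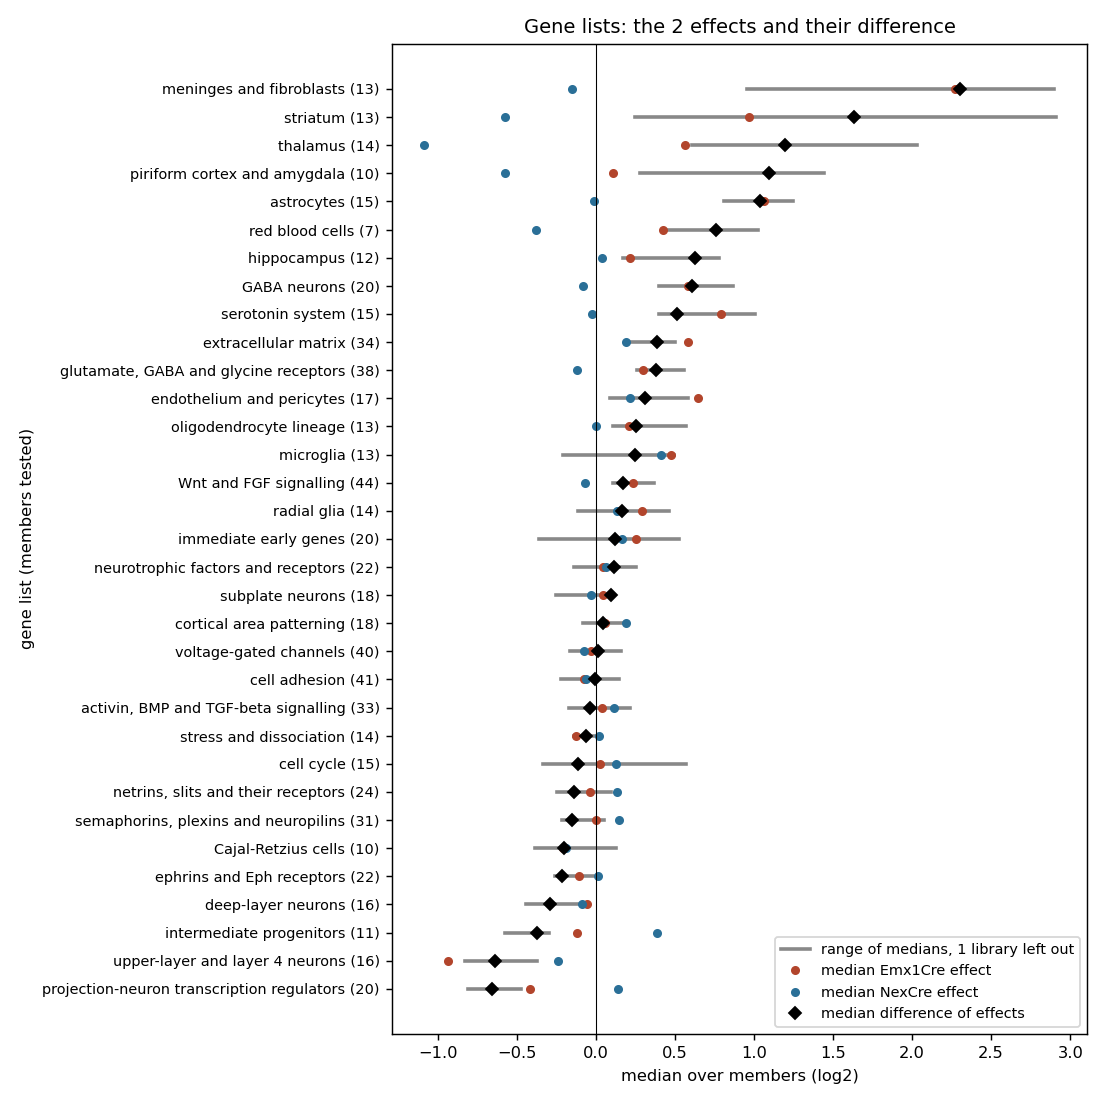
Median difference of effects of each gene list (log2, horizontal axis) beside the medians of the effects in the Emx1Cre and NexCre lines. Grey bars span the medians with each library left out together with the median of all libraries. The choroid plexus list, which reaches past the axis at -2.22, and the sex-linked list are not drawn. Astrocyte markers lie at 1.04 and projection-neuron transcription regulators at -0.66.

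Astrocyte markers leaned high. Of 15 tested, 10 had a higher difference at an unadjusted edgeR p under 0.05 and 0 a lower one, and DESeq2 called 5 after adjustment. The median difference was 1.04, made up of a median effect of 1.06 in the Emx1Cre line and -0.01 in the NexCre line. Their summed level ran from 5019 to 6102 unscaled CPM in Emx1Cre mutants and from 2350.5 to 2979.6 in Emx1Cre controls, so those groups did not overlap. It ran from 1759.7 to 1882 in labelled NexCre mutants and from 1401 to 1981 in NexCre controls, which overlapped. Aqp4, the water channel of astrocyte endfeet, had 249.9 and 200.2 CPM in Emx1Cre mutants and 81.3 and 76.3 CPM in Emx1Cre controls. In labelled NexCre mutants it had 24.98 and 19.7 CPM, against 38.002 and 14.9 CPM in NexCre controls, and its difference of 1.75 ± 0.48 was 0.93 without NexCre control pool 1. Aldh1l1, a folate enzyme used as an astrocyte marker, had 213 and 216 CPM in Emx1Cre mutants and 119.97 and 85.3 CPM in Emx1Cre controls, and a difference of 1.17 ± 0.29. Gja1, the astrocyte gap junction gene, had a difference of 2.26 ± 0.52, or 1.34 without that pool, and Slc4a4, a bicarbonate transporter gene, one of 1.63 ± 0.39, or 1.03 without it. The list median stayed between 0.81 and 1.24 over the libraries left out in turn. Radial glia markers had 1 higher and 1 lower of 14, and cell cycle genes 0 of 15 in either direction.

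**Figure D5:**
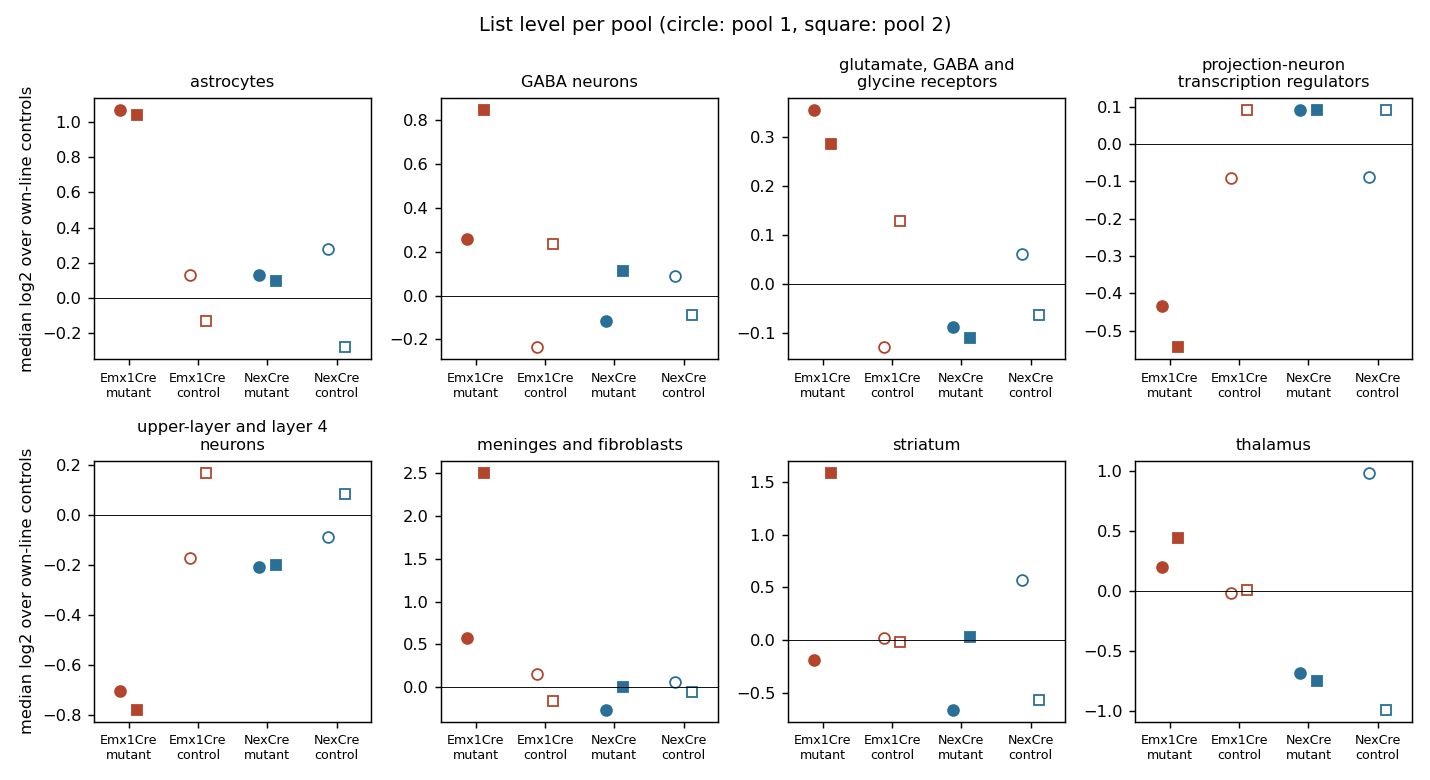
Median log2 level of gene lists in each pool over the mean of its own line's controls, mutants left of controls. Astrocyte markers stand at 1.07 and 1.04 in Emx1Cre mutants and at 0.13 and 0.10 in labelled NexCre mutants.

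Receptor genes and GABA neuron markers also leaned high. Of 38 glutamate, GABA and glycine receptor genes, 9 had a higher difference and 0 a lower one, with a median of 0.38. Gabra3, a GABA-A receptor subunit, had 151 and 145 CPM in Emx1Cre mutants and 111 and 128 CPM in Emx1Cre controls. It had 41.3 and 39.5 CPM in labelled NexCre mutants and 63.96 and 57.5 CPM in NexCre controls, a difference of 0.90 ± 0.20. Markers of GABA neurons, which neither driver targets, had 5 of 20 higher and a median of 0.61, with Adarb2 at 1.07 ± 0.28 and the neuropeptide gene Vip at 2.18 ± 0.65. Their median level over own-line controls was 0.26 and 0.85 in Emx1Cre mutant pools 1 and 2, where that of striatal markers was -0.19 and 1.59. The median difference was 0.40 without pool 2 and 0.23 without that pool and NexCre control pool 1, and the part of striatal tissue in it was not tested. Their summed level ran from 842 to 1238 unscaled CPM in Emx1Cre mutants and from 669 to 815 in Emx1Cre controls. Voltage-gated channel genes had 1 of 40 lower, a share near that of all genes. Of 15 serotonin system genes 3 were higher, among them the receptor gene Htr1b (2.86 ± 1.14), whose NexCre controls differed widely at 7.72 and 1.17 CPM and whose difference was 0.95 without the first of them.

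Guidance, signalling and adhesion lists had medians between -0.21 and 0.17. Semaphorins, plexins and neuropilins had 3 higher and 2 lower of 31. Plxnc1, the receptor of Sema7a, had 112 and 84.2 CPM in Emx1Cre mutants and 46.9 and 26.2 CPM in Emx1Cre controls, and a difference of 1.59 ± 0.44, opposite in sign to that of its ligand gene. Ephrins and Eph receptors had 1 higher and 1 lower of 22, Epha10 at 1.85 ± 0.56, or 1.06 without NexCre control pool 1, and Epha4 at -0.95 ± 0.25. Netrins, slits and their receptors had 1 higher and 2 lower of 24, with the netrin receptor gene Unc5b at 0.75 ± 0.29 and the guidance cue gene Draxin at -0.60 ± 0.19. Neurotrophic factors and receptors had 2 higher and 4 lower of 22. Activin, BMP and TGF-beta genes had 3 of 33 lower, among them the helix-loop-helix inhibitor gene Id2 (-1.21 ± 0.27). Wnt and FGF genes had 7 higher and 3 lower of 44. Sfrp1, a secreted Wnt inhibitor, had a difference of -0.74 ± 0.19, and Fzd10, a Wnt receptor gene, one of 4.73 ± 1.26 that was 1.77 without NexCre control pool 1. Adhesion genes had 6 higher and 2 lower of 41, with the axonal adhesion gene Cntn2 at -1.33 ± 0.28.

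Several lists of neighbouring tissue moved with single pools. The extracellular matrix list was above its controls in both Emx1Cre mutant pools. So were the meningeal markers, at a median level of 0.57 and 2.51 over own-line controls. The lists share Dcn, Lum, Col1a1, Col1a2 and Col3a1. Of 34 extracellular matrix genes, 11 were higher and 1 lower, with a median of 0.39, or 0.22 to 0.50 with single libraries left out. That median was 0.13 with Emx1Cre mutant pool 2 and NexCre control pool 1 both left out. The median level of the matrix list over own-line controls was 0.51 and 0.58 in Emx1Cre mutant pools and 0.04 and 0.24 in labelled NexCre mutant pools. Col1a1, a fibrillar collagen gene, had a difference of 3.34 ± 0.82, or 2.06 without Emx1Cre mutant pool 2. Meningeal markers had 8 of 13 higher, with a median of 2.30 that was 0.96 without that pool. Striatal markers had 4 of 13 higher and a median of 1.64, which was 0.25 without it. Thalamic markers had 7 of 14 higher and a median of 1.19, which was 0.61 without NexCre control pool 1. Tcf7l2, a thalamic transcription factor gene, had 5.26 and 5.99 CPM in labelled NexCre mutants and 42.9 and 5.92 CPM in NexCre controls. Choroid plexus markers had a median of -2.22, which turned to 1.80 without labelled NexCre mutant pool 1 and was -0.73 without Emx1Cre control pool 1. Their summed level in labelled NexCre mutants ran from 39.3 to 2221 unscaled CPM, against 29.9 to 419 in NexCre controls. The part of such tissue in the other differences was not tested. Red blood cell genes had 2 of 7 higher and a median of 0.76, which was 0.42 without Emx1Cre mutant pool 2. Hippocampal markers had 4 higher and 1 lower of 12, with a median of 0.63 that was 0.17 without NexCre control pool 1. Markers of piriform cortex and amygdala had 3 higher and 1 lower of 10, and their median of 1.09 was 0.28 without that pool. Cajal-Retzius markers had 2 higher and 1 lower of 10, and area patterning genes 3 higher and 2 lower of 18. The count was 1 higher of 13 for the oligodendrocyte lineage, 1 of 17 for endothelium and pericytes, and 0 of 13 in either direction for microglia. Immediate early genes, which respond to activity and handling, had 2 higher and 3 lower of 20, and stress genes 0 of 14 in either direction.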

How the data were processed

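Read counts per gene were computed by the authors and deposited as a separate table for each line. The submitters' processing notes list HISAT2, SAMtools, DESeq2 and the build mm10. For the counting program, annotation, strandedness and versions, no value is given in the sources used here. Reads were paired and 100 bp long, per the labels' protocols.

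The tables were joined by symbol into 55202 genes. Symbols that had become date numbers (26 and 24 rows, 0.239% to 0.269% of reads) were left out. Positions and biotypes are from GENCODE M21. Genes were kept by filterByExpr (minimum count 10, minimum total 15), scaled by TMM, and modelled in edgeR 4.0.16 (glmQLFit, limma 3.58.1, R 4.3.3), all 8 libraries in 1 fit with group as the only term, 4 residual and 5.95 prior degrees of freedom, and a biological coefficient of variation of 26.2%. Tests were two-sided with Benjamini-Hochberg adjustment over 22820 genes at 0.05. Permuting labels within lines allows no exact p below 0.0556. DESeq2 1.42.0 was an alternative, beside other scalings and filters, limma voom, a replicate block, gene removals and leaving out each library. The scripts were tested on simulated data.

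The comparison and gene lists were chosen with earlier results of these data known. Named were Lhx2, Emx1 and Neurod6, the 12 genes per direction with the lowest p for the difference (called genes first, protein-coding, mean of at least 1 CPM in each line, no placeholder name), the 5 genes of lowest p per line effect and, in each list, up to 4 called members or else the 2 of lowest p; not all of these are described. Hist1h2al, Slc6a4, Gucy1a1, Sparcl1, Cldn3, Satb1, Sdk2, Etl4, Plcxd2, Aldh1l1, Aqp4, Tcf7l2, Ttr and Ccl19-ps3 were chosen after their values were seen.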

Additional observations from a re-analysis of the deposited data

Results flagged for a closer look

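Hist1h2al passed the edgeR test of the difference between the 2 effects itself, at -7.19 ± 0.59 with an adjusted p of 0.00618. Both labelled NexCre mutants were above both NexCre controls, and the Emx1Cre groups overlapped, in libraries with few histone reads. As a member of a family of near-identical histone sequences, it has an uncertain count.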

How the results depend on the processing

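For the difference of effects, edgeR called 1 gene under RLE scaling, upper-quartile scaling and the strict filter, 408 with no low-count filter and 0 among protein-coding genes only (879 at an unadjusted p under 0.05) or without haemoglobin, sex-linked and histone genes (1233), both of which leave out Hist1h2al. DESeq2 called 96 and limma voom 0 (1111 at an unadjusted p under 0.05). Leaving out single libraries gave 1 to 31 calls, with 31 without NexCre control pool 2, 8 without Emx1Cre control pool 2, 7 without Emx1Cre mutant pool 1, 3 without Emx1Cre mutant pool 2 and 2 without Emx1Cre control pool 1, and Hist1h2al was called each time. For the Emx1Cre effect the count of 18 was 585 with no filter, 298 by DESeq2 and 0 to 28 over the libraries left out: 0 without labelled NexCre mutant pool 2 (1502 at an unadjusted p under 0.05), 1 without labelled NexCre mutant pool 1 or Emx1Cre mutant pool 2, 7 and 8 without Emx1Cre control pools 1 and 2, and 28 without Emx1Cre mutant pool 1. For the NexCre effect the count of 7 was 251 with no filter, 76 by DESeq2, 0 by limma voom (1004 at an unadjusted p under 0.05) and among protein-coding genes (643), 4 without haemoglobin, sex-linked and histone genes, and 1 to 43 over the libraries left out: 1 without NexCre control pool 1, 2 and 3 without labelled NexCre mutant pools 1 and 2, 13 without either Emx1Cre mutant pool and 43 without NexCre control pool 2. Chosen after seeing the data, leaving out Emx1Cre mutant pool 2 and NexCre control pool 1 together gave 3 calls for the difference and 1 for the Emx1Cre effect, and a Y-linked covariate gave 2 for the Emx1Cre effect and 1 for the NexCre effect. Sex-linked transcripts differed between pools. Their median log2 level over own-line controls was 1.73 and -3.25 in Emx1Cre mutant pools 1 and 2. It was -5.89 and 0.15 in labelled NexCre mutant pools 1 and 2. The part of sex in these counts and the cause of the other changes were not tested.

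Replicate numbers are shared between groups, but the labels do not say that they pair pools. Same-numbered pools deviated together with correlations of 0.323 in the Emx1Cre line and 0.151 in the NexCre line, with 2 pairs each. The replicate block gave 5 calls for the difference (Hist1h2al, Ccl19-ps3 and the list members Eomes at -3.82, Col1a1 at 3.15 and Ttr), 82 for the Emx1Cre effect and 22 for the NexCre effect.

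Over 1950 values of named genes under the alternatives, 1802 kept their direction and side of the threshold, 136 passed it newly and 1 no longer passed. The other 11 changed sign. Over the libraries left out, C1qa ran from -0.0035 (without NexCre control pool 1) to 0.91, Ebf2 from -0.061 (without the same pool) to 9.98, Slc4a5 from -5.03 to 0.34 and Ttr from -8.04 to 2.92 (both highest without labelled NexCre mutant pool 1), Hmox1 from -1.29 to 0.56 (without labelled NexCre mutant pool 2), Hspa1b from -0.99 to 0.0014 (without Emx1Cre mutant pool 1), and Slc6a4 from -0.047 (without NexCre control pool 2), with -0.019 without labelled NexCre mutant pool 2, to 0.64. With both pools out C1qa was -0.51 and Ebf2 -0.38, and with the Y-linked covariate Ttr was 1.78.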
